A study of Mus musculus with 18 samples.

Results

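Estradiol (E2) was compared directly with progesterone (P4) in the uteri of mice that had all received doxorubicin (DOX). The comparison took the 3 libraries labelled DOX E2 and the 3 labelled DOX P4, which are 6 of the 18 libraries of the series, by their column names. Another 3 libraries, DOX with OIL, served only as a reference for the direction in which each hormone moved a gene. All 9 libraries came from adult ovariectomized CD-1 females, an outbred stock, so that the ovarian source of both hormones had been removed and the groups shared DOX and differed by OIL, E2 or P4. The labels give no dose, no interval between DOX, hormone and collection, no age beyond adult, and no statement that each library was a separate animal. P-values therefore measure the spread between these libraries, which may be technical. RNA was total RNA of whole uterus homogenate, so every value below averages over luminal and glandular epithelium, stroma, smooth muscle, vessels and immune cells, and fewer cells of a type cannot be told apart from less RNA per cell.

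E2 and P4 act through nuclear receptors that bind DNA and recruit coactivators. In the rodent uterus E2 is known for fluid uptake, growth and secretion of the epithelium and for raising the progesterone receptor. P4 is known for restraining epithelial growth under E2 and for preparing the stroma to decidualize, partly through hedgehog signalling from epithelium to stroma. DOX is an anthracycline that poisons topoisomerase II and causes DNA strand breaks. The question addressed here is how far the responses to the 2 hormones part, or coincide, once the animals have had DOX.

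The E2 libraries held 21786691 to 28122299 counts, the P4 libraries 21040028 to 26966264 and the OIL libraries 18042357 to 21951895. On the 1000 most variable genes the first principal component of the 9 libraries carried 80.9% of the variance and placed the E2 libraries at 65.94 to 73.95 and all others at -38.49 to -33.56. The second carried 10.4% and parted P4 (17 to 28.08) from OIL (-22.87 to -20.61). Defining markers of smooth muscle, stroma and luminal epithelium were all detected.

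Most expressed genes differed between the 2 hormones. After a filter on low counts 15494 genes were tested with edgeR's quasi-likelihood test, and 10945 had a Benjamini-Hochberg adjusted p under 0.05, which is 70.6% of the genes tested. Of these, 5536 were higher in E2 (35.7% of tested genes) and 5409 were lower (34.9%). A difference of at least 2-fold was reached by 2237 genes higher in E2 (14.4%) and by 3199 genes lower in E2 (20.6%). The CPM (read counts scaled to a common library size with edgeR's TMM factors) of the E2 and P4 libraries did not overlap for 75.1% of genes. With library totals in place of TMM, an alternative added after the data were seen, the median log2 difference of all genes moved from -0.013 to -0.252, and 38.86% of the called genes were higher in E2 against 50.58% in the main analysis (4236 higher and 6664 lower). Differences below are relative to the TMM scale. The shares of 35.7% higher and 34.9% lower are the background for the list counts that follow.

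**Figure D1:**
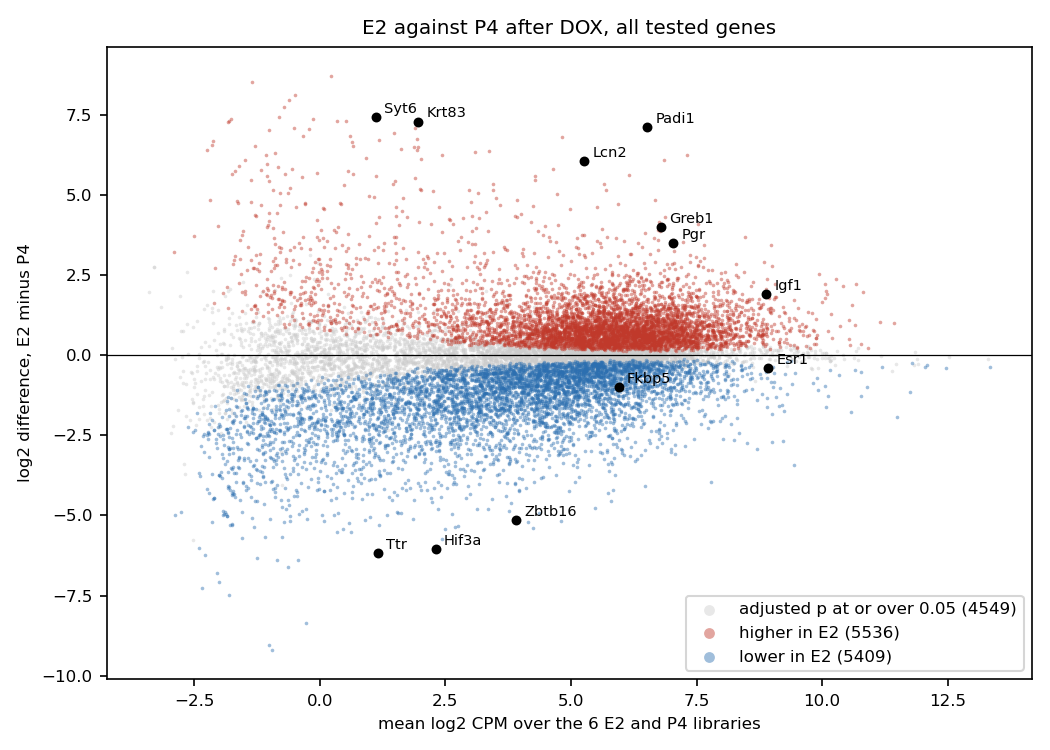
Log2 difference between E2 and P4 after DOX (vertical axis) against mean log2 CPM over the 6 libraries (horizontal axis), 1 point per tested gene, coloured by the edgeR call. Called genes lie on both sides of 0, with 5536 higher and 5409 lower in E2, and the labelled genes are described in the text.

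Syt6, a synaptotagmin, was among the largest rises in E2 and had 23.7, 34.0 and 14.2 CPM in E2 libraries 1 to 3 and 0.272, 0.113 and 0.0362 CPM in the P4 libraries, a log2 difference of 7.44 ± 0.58 (SE; edgeR adjusted p = 2.14e-08). Krt83, a hair keratin, had 61.3, 48.4 and 76.1 CPM under E2 and 1.27, 0.0376 and 0 CPM under P4 (7.29 ± 0.72). P4 replicate 1 held nearly all of its reads under P4, and without that library the difference was 11.34. In both genes every E2 library stood far above every P4 and OIL library, and P4 overlapped OIL. Padi1, which converts arginine to citrulline in proteins of keratinizing epithelium, was the most abundant of the group: 1293, 1345 and 1045 CPM under E2, 14.5, 10.4 and 2.06 under P4 and 51.0, 24.8 and 49.5 under OIL. Its E2 against P4 difference was 7.11 ± 0.74 (edgeR adjusted p = 4.09e-07), and the 3 groups did not overlap, with P4 below OIL and OIL below E2. Ptpn5, a protein tyrosine phosphatase, reached 389, 204 and 412 CPM under E2 and 6.06, 1.84 and 1.27 CPM under P4 (6.82 ± 0.49). The other large rises reported ranged from 6.37 (Krt4, a keratin of wet stratified epithelium) to 7.07 (Mylk2, a myosin light chain kinase). Between them were Sectm1b (6.71), Slc6a13 (a GABA and taurine transporter, 6.502), Sprr2g (a small proline-rich envelope protein, 6.48), Aqp8 (an aquaporin, 6.44) and Crtac1 (6.40). Sectm1b held 14 counts over the P4 libraries, so the size of its fold is uncertain. Sprr2g belongs to a family of close copies, and no source used here says how reads shared between copies were counted.

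The largest falls were in genes that P4 held at or above the OIL level. Ttr, transthyretin, which carries thyroid hormone and retinol-binding protein, had 0.310, 0.206 and 0.164 CPM under E2 and 19.8, 12.2 and 17.1 CPM under P4, a log2 difference of -6.16 ± 0.57 (edgeR adjusted p = 1.13e-07). Hif3a, a hypoxia-inducible factor subunit, had 0.310, 1.03 and 0.452 CPM under E2, 46.5, 32.7 and 39.8 under P4 and 4.89, 4.45 and 7.002 under OIL (-6.06 ± 0.40, edgeR adjusted p = 5.76e-09). For both genes OIL lay between the 2 hormones without overlap. Zbtb16, the PLZF transcription factor and a classical progestin and glucocorticoid target, had 1.34, 2.32 and 3.98 CPM under E2, 82.3, 98.8 and 95.6 under P4 and 23.2, 33.7 and 32.6 under OIL (-5.15 ± 0.31). In Calca, which encodes calcitonin and CGRP, and in Gldc, the glycine decarboxylase, it was P4 that moved. Calca had 30.4, 9.78 and 30.4 CPM under P4, 0.155, 1.24 and 0.657 under E2 and 0.456, 0.413 and 0.316 under OIL (-5.10 ± 0.59 for E2 against P4), and Gldc had a difference of -4.99 ± 0.40. The others reported were Ndp (the Norrin ligand, -5.74), Ano2 (a calcium-activated chloride channel, -5.43), Pla2g10 (a secreted phospholipase, -5.33), Sptlc3 (a serine palmitoyltransferase subunit, -5.29) and Lrrc17 (-5.19). Sptlc3 held 20 counts over the E2 libraries. In GENCODE M21 Lrrc17 overlaps Fbxl13, so its count is uncertain: no source used here says whether counting used strand. The same applies to other named genes. Those with an overlap on the other strand include Mars (Ddit3), Mmp11 (Chchd10), Muc4 (Muc20), Dbp (Sphk2), Loxl3 (Htra2), Eng (Fpgs) and Syt6 (Atg4a-ps). Among them are also Sult1a1 (Sgf29), Nusap1 (Oip5), Rbl2 (Aktip), Cdk4 (Tspan31), Ddb2 (Acp2), Atp1b1 (Nme7), Rarb (Top2b), Plin4 (Hdgfl2), Ccdc39 (Ttc14) and Masp1 (Rtp4). Per3 (Camta1), Hoxc6 (Hoxc5) and Bax (Gm45808) overlap on the same strand, so their counts are uncertain whether or not strand was used. On mouse build GRCm38, Padi1 lies on chromosome 4 at 140812983 to 140845778 (- strand), Hif3a on chromosome 7 at 17031507 to 17062427 (- strand), Zbtb16 on chromosome 9 at 48654297 to 48836222 (- strand) and Greb1 on chromosome 12 at 16670615 to 16800886 (- strand).

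**Figure D2:**
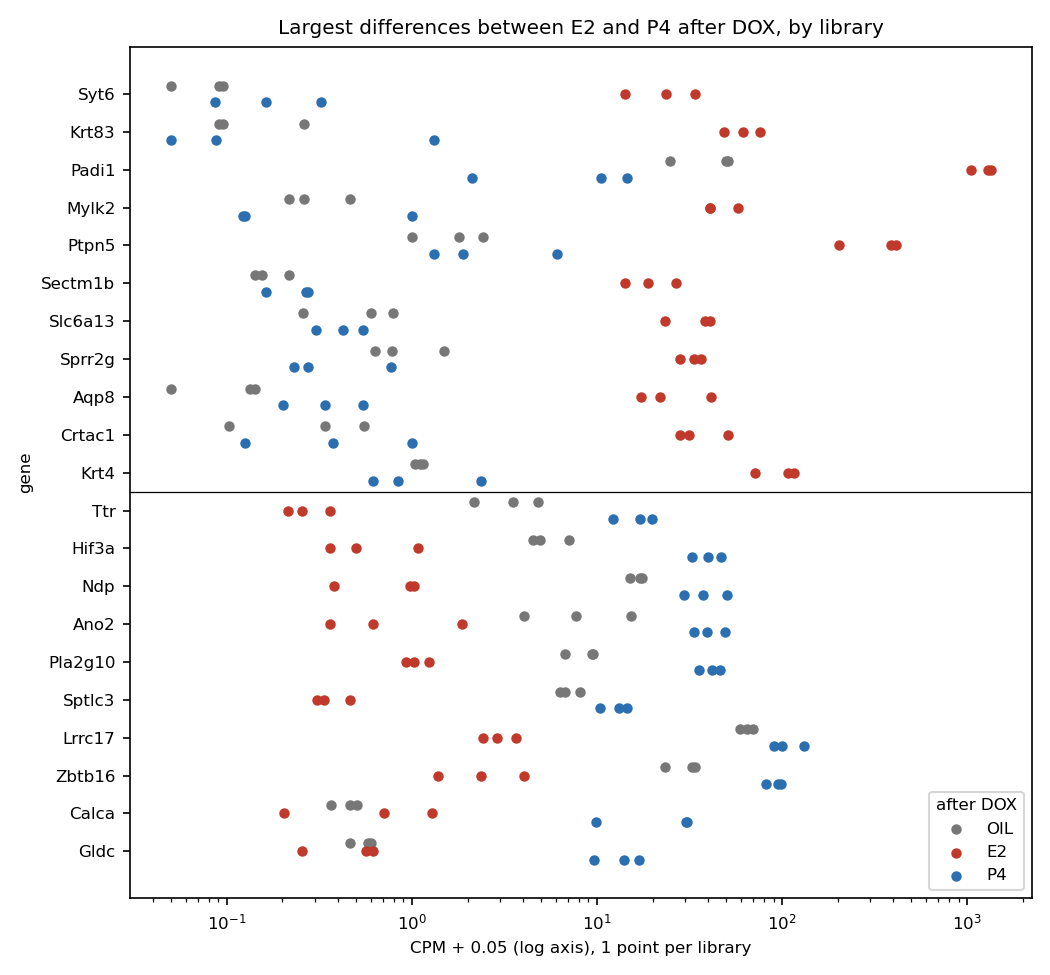
CPM plus 0.05 on a log axis for the largest rises (above the line) and the largest falls (below it) reported between E2 and P4 after DOX, 1 point per library, coloured by group. The E2 points stand apart from the P4 points in every gene shown, which the choice of genes required. The OIL points lie with P4 for most rises and with E2 for Calca and Gldc.

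Among the receptors, the progesterone receptor gene Pgr had 468, 391.9 and 462 CPM under E2 and 39.7, 35.0 and 43.3 CPM under P4, a log2 difference of 3.49 ± 0.21 (edgeR adjusted p = 3.87e-09), with OIL at 63.7, 44.8 and 56.8 CPM. P4 against OIL was -0.49 and did not pass the test (edgeR adjusted p = 0.077). The estrogen receptor gene Esr1 had 492, 356 and 434 CPM under E2 and 555, 568 and 567 under P4, a difference of -0.40 ± 0.15 (edgeR adjusted p = 0.0269). The groups did not overlap, but the call was lost when E2 replicate 2 (-0.28), E2 replicate 3 (-0.41) or P4 replicate 3 (-0.40) was left out. Over the list of steroid receptors and cofactors 4 of 20 were higher in E2 and 13 lower (median log2 difference -0.49, against -0.013 over all tested genes). Beside Pgr the higher members included the corepressor Nrip1 (1.38) and the co-chaperone Fkbp4 (1.02). The lower members included Nr2f2, the COUP-TFII orphan receptor of stroma (-1.66), Gata2, a transcription factor that cooperates with the progesterone receptor (-1.29), and Gpr30, the membrane estrogen receptor now named Gper1 (-4.35). For genes of steroid metabolism the counts were 3 higher and 9 lower of 14 (median -1.005). Hsd17b11 (1.53) and Hsd17b7 (2.63), both hydroxysteroid dehydrogenases, and Akr1c14 (1.22) were higher in E2. Hsd17b4 (-1.13) and the sulfotransferase Sult1a1 (-3.71) were lower.

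Classical E2 targets rose under E2 against P4 as a group. Of 41 tested estrogen-induced uterine genes 34 were higher and 2 lower, with a median log2 difference of 3.37. The lower ones were Ckb, brain creatine kinase (-1.41), and Clca1 (-1.34). Greb1, an estrogen receptor coactivator, had 469, 419 and 444 CPM under E2, 27.6, 32.6 and 23.2 under P4 and 38.2, 37.6 and 45.6 under OIL, and the difference was 3.99 ± 0.20 (edgeR adjusted p = 1.32e-09). The P4 libraries of Greb1 lay below all OIL libraries, and P4 against OIL was -0.54 (edgeR adjusted p = 0.0394). Inhbb, the beta B subunit of activin and inhibin, had 1532, 1156 and 1568 CPM under E2 and 27.2, 16.2 and 12.6 under P4 (6.25 ± 0.30). Ramp3, a partner of the adrenomedullin receptor (5.61), and Slc7a5, a large neutral amino acid transporter (3.24), were also among those with the smallest p. Ltf, lactoferrin, parted in another way: E2 (369, 412 and 239.8 CPM) overlapped OIL (171, 123 and 654 CPM), while the P4 libraries held 9.95, 74.0 and 14.4 CPM. Its E2 against P4 difference was 3.37 ± 0.81 (edgeR adjusted p = 0.00149) and P4 against OIL was -3.27 (edgeR adjusted p = 0.00702). Igf1, the growth factor that stroma releases under E2, was raised by both hormones, with 1047, 893 and 844 CPM under E2, 234, 184 and 331 under P4 and 71.2, 68.8 and 70.4 under OIL. Here E2 exceeded P4 by 1.89 ± 0.22 on the log2 scale (edgeR adjusted p = 1.67e-06), and the 3 groups did not overlap.

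Progesterone-induced genes leaned the other way but less uniformly: 24 of 36 were lower in E2, 7 higher, and the median was -1.34. Against OIL, 17 of the members were higher and 5 lower under P4, and 12 higher and 18 lower under E2. Tsc22d3 (GILZ) had 19.0, 28.2 and 22.8 CPM under E2, 171, 168 and 192 under P4 and 166, 143 and 163 under OIL (-2.93 ± 0.17). All P4 libraries of Tsc22d3 lay just above OIL without passing the test (0.17, edgeR adjusted p = 0.44), and E2 was below OIL (-2.76). Foxo3, a forkhead factor active when growth signalling is low, was lower in E2 than in P4 (-1.35). Both hormones lowered Foxo3 against OIL, by -1.79 for E2 and -0.45 for P4 (edgeR adjusted p = 0.0121 for P4). Fkbp5, a steroid receptor co-chaperone, was raised by both hormones: 86.7, 90.1 and 86.0 CPM under P4, 39.5, 45.3 and 46.0 under E2 and 15.2, 18.9 and 17.6 under OIL, with E2 below P4 (-1.01 ± 0.18, edgeR adjusted p = 0.000102). Areg, amphiregulin, an epithelial EGF-family ligand induced by P4, had 10.6, 6.17 and 15.4 CPM under P4 and 0.465, 0.206 and 0.287 under E2 (-5.05 ± 0.54, edgeR adjusted p = 1.5e-06). The 3 OIL libraries together held 1 count of Areg, so no fold against OIL is given. Over targets shared by progestins and glucocorticoids 7 were higher in E2 and 7 lower of 17 (median 0.25). The members split, with Tsc22d3 and Zbtb16 lower in E2 and Lcn2, the iron-binding lipocalin, higher (6.06).

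Genes of the Indian hedgehog pathway were mostly lower in E2 than in P4, although the difference in the ligand itself did not pass the test. Ihh had 33.1, 30.8 and 19.5 CPM under E2 and 40.7, 27.3 and 44.5 under P4, and the groups overlapped (-0.43 ± 0.39, edgeR adjusted p = 0.337). Ihh was called higher than OIL under both hormones, by 1.05 for E2 and 1.48 for P4 on the log2 scale, although the E2 libraries overlapped OIL. Ptch1, the hedgehog receptor and a readout of pathway activity, had 56.9, 43.0 and 36.3 CPM under E2, 374, 305 and 422 under P4 and 224, 171 and 203 under OIL (-3.02 ± 0.29, edgeR adjusted p = 1.98e-07). Over the list 13 of 16 members were lower in E2 and 1, Dhh (desert hedgehog, 3.22), was higher (median -1.19), among the lower ones the co-receptor Boc (-1.79) and the inhibitor Sufu (-0.80). Against OIL, E2 lowered 11 and P4 raised 8 of them, and 5 members were called in both of these opposite directions.

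The machinery of protein synthesis was higher in E2 almost throughout. Ribosome biogenesis genes were higher in E2 in 30 of 30 cases (median 1.81). Ncl, nucleolin, had 2366, 1999 and 2136 CPM under E2, 526, 543 and 538 under P4 and 466, 445 and 416 under OIL (2.02 ± 0.12), and Nop58, a core protein of box C/D particles, differed by 2.66. The aminoacyl-tRNA synthetases, which charge tRNAs, were higher in 19 and lower in 1 of 20 (median 1.602), including Mars (1.74), Rars (1.61) and Vars (1.71), and the lower one was Qars (-0.31). Chaperones and stress genes of the endoplasmic reticulum were higher in 27 and lower in 1 of 30 (median 1.32), the lower one being Cdnf (-2.08). Among these Atf4, a transcription factor of the amino acid and stress response, had 727, 757 and 777 CPM under E2 and 154, 139 and 123 under P4 (2.44 ± 0.16), and Creld2, a secreted stress-induced protein, differed by 2.65. The heat shock proteins followed with 22 higher and 1 lower of 25 (median 0.96), including Cct3 (1.75) and Hspa9 (1.75) above and Hspa4l (-0.60) below. Of the 30 ribosome biogenesis genes, E2 raised 30 and P4 raised 14 against OIL, with medians of 2.24 and 0.30.

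Promoters of the chaperones and synthetases are described because these groups moved together, and windows that hold either of 2 short motifs are shown. They are RefSeq sequences on build GRCm38.p6, cut from 250 bases before to 50 bases after the annotated start, 5′ to 3′ on the strand of the gene, with the motif in capitals and up to 40 bases on either side. A promoter entry was found for 10677 of the 15494 tested genes. Both strands were searched, so a motif can appear as its reverse complement. The endoplasmic reticulum stress element was searched as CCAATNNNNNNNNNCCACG, and its windows in the 4 chaperone genes below lie at chr2:34771985-34772083 (Hspa5, strand +), chr15:88819480-88819578 (Creld2, strand +), chr10:86705598-86705694 (Hsp90b1, strand -) and chr12:17266451-17266549 (Pdia6, strand +).
Hspa5: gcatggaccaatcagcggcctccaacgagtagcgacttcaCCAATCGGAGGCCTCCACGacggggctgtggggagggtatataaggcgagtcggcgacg
Creld2: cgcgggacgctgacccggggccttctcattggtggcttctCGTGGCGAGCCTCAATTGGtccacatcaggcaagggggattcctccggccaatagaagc
Hsp90b1: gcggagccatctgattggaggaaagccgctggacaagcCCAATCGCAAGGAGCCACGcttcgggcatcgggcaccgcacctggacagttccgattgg
Pdia6: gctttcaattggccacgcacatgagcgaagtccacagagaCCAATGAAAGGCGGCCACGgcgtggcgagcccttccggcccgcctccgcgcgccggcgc
That element was present in 9 of 25 chaperone and stress genes with a promoter entry (36%), in 20 of 10677 tested genes with one (0.19%), in 10 of 1574 genes at least 2-fold higher in E2 (0.64%) and in 1 of 2143 genes at least 2-fold lower (0.05%). These sets overlap, since the 9 are part of the 20 and the 4 genes shown are part of the 10. Their shares are therefore not separate observations. The composite site of C/EBP and ATF factors was searched as TGATGNAA, and 2 synthetase windows lie at chr8:111033690-111033777 (Aars, strand +) and chr6:55037931-55038018 (Gars, strand +).
Aars: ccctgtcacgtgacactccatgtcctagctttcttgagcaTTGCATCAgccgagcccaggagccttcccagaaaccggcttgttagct
Gars: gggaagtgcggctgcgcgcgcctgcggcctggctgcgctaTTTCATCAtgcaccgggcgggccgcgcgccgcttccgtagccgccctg
That site was present in 5 of 12 synthetase genes with an entry (41.67%), in 309 of 10677 (2.89%), in 55 of 1574 higher genes (3.49%) and in 63 of 2143 lower genes (2.94%). The 6 genes shown were chosen after their values were seen. Their log2 differences between E2 and P4 were 2.54 for Hspa5 (BiP, the main chaperone of the compartment), 2.65 for Creld2, 1.35 for Hsp90b1 (GRP94), 1.61 for Pdia6 (a disulfide isomerase), 2.33 for Aars and 1.81 for Gars, all called. The palindromic estrogen response element GGTCANNNTGACC was found in 1 of the 10677 promoter windows. The progestin and glucocorticoid element, searched as GNACANNNTGTNC, was found in 45 (0.42%), including 4 of 1574 higher genes (0.25%) and 19 of 2143 lower genes (0.89%). The AP-1 site TGANTCA was found in 6.87% of all, 8.01% of higher, 6.91% of lower and 20.59% of estrogen-induced genes. For the E-box CACGTG the shares were 11.3% of all, 15.5% of higher, 9.61% of lower and 33.33% of synthetase genes. Ribosome biogenesis, immediate early, clock, progesterone-induced, estrogen-induced and cholesterol lists were searched too. The 2 pairs of list and motif shown had the highest shares of any pair searched. A match is a description of letters in a short window and no match says nothing of sites elsewhere.

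Cholesterol genes also stood higher in E2. For cholesterol biosynthesis 19 of 24 were higher and 2 lower (median 1.71). Idi1, the isopentenyl diphosphate isomerase, had 171, 117 and 151 CPM under E2, 21.0, 24.0 and 17.0 under P4 and 13.1, 9.63 and 10.2 under OIL (2.82 ± 0.18), and Sc4mol (Msmo1) differed by 2.29 and Lss by 1.83, while Tm7sf2 (-0.95) and Ebp (-0.45) were lower. Nuclear genes of oxidative phosphorylation showed a smaller gap: 15 of 30 were higher in E2 and 3 lower (median 0.21), while 21 were above OIL under both hormones. Cox5a had 133, 117 and 121 CPM under E2, 49.9, 49.5 and 54.4 under P4 and 29.8, 29.5 and 25.6 under OIL (1.27 ± 0.15). On library totals the oxidative phosphorylation counts became 7 higher and 6 lower, so the lean of this list rests on the scaling. The lower ones on the TMM scale were Ndufb3 (-0.38), Sdha (-0.25) and Cox6c (-0.66). Amino acid transporters split, with 13 higher and 9 lower of 25 (median 0.37), and on library totals 10 higher and 11 lower. Slc3a2, the partner chain of Slc7a5, was higher in E2 (2.05), as was Slc38a1 (1.20). Slc6a14, a broad amino acid transporter of epithelia, was highest under P4, with 40.6, 32.2 and 29.3 CPM under P4, 3.98, 3.04 and 2.67 under E2 and 1.62, 1.93 and 1.90 under OIL (-3.40 ± 0.18, edgeR adjusted p = 1.78e-09). All E2 libraries of Slc6a14 also lay above OIL.

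Division genes showed little that could be called. Of 30 mitotic spindle and division genes 1 was higher in E2 and 5 lower (median -0.58). The higher one was Mad2l1, a spindle checkpoint protein, with 337, 297 and 306 CPM under E2 and 13.1, 7.33 and 6.36 under P4 (5.14 ± 0.49), and it made up most of the summed CPM of the list under E2. Mki67, the proliferation marker, had 21.5, 7.17 and 14.3 CPM under E2 and 23.5, 35.8 and 24.4 under P4. Its groups did not overlap, but the difference of -0.96 ± 0.45 did not pass the test (edgeR adjusted p = 0.0668). It passed with DESeq2, with limma voom, and with edgeR on library totals or on the compared groups alone, the adjusted p ranging from 0.0123 to 0.237 over all settings. Without E2 replicate 1, the highest of the 3 for Mki67, it passed too (-1.40), and the count of lower division genes rose from 5 to 20. Without E2 replicate 2 that count was 1, without E2 replicate 3 it was 2, and without P4 replicate 2 it was 3. The count was 16 with limma voom and 16 on library totals, so no direction is given for the group. The 5 lower genes were Nusap1 (-1.49), Cenpa (-0.99), Ndc80 (-0.97), Nuf2 (-0.80) and Racgap1 (-0.63). Top2a, the enzyme that DOX poisons, had 50.3, 16.2 and 31.7 CPM under E2 and 19.2, 30.5 and 21.7 under P4, which overlapped (0.46 ± 0.36, edgeR adjusted p = 0.271). Replication licensing genes were higher in E2 in 13 and lower in 2 of 30 (median 0.40). They included Pcna, the polymerase clamp (1.37), and Mcm4, a helicase subunit (1.25), while Gins4 (-1.09) and Mcm7 (-0.66) were lower. The count of lower licensing genes was 4 without E2 replicate 1 and on library totals. Among G1 regulators 6 were higher and 8 lower of 23 (median 0.21), the lower share being near the 34.9% of all tested genes. The CDK inhibitors Cdkn1b (p27, -1.67) and Cdkn2c (p18, -2.07) and the pocket protein Rbl2 (-2.101) were lower in E2 and Cdk4 was higher (0.73). The count of lower G1 members was 5 without P4 replicate 3.

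Cdkn1a (p21), a CDK inhibitor and p53 target, had 172, 206 and 206 CPM under E2, 54.9, 26.7 and 59.3 under P4 and 47.8, 63.8 and 25.5 under OIL, a difference between hormones of 2.05 ± 0.34 (edgeR adjusted p = 5.9e-05). The E2 libraries stood above all others, and P4 against OIL did not pass the test (0.04, edgeR adjusted p = 0.948). Of 32 p53 target genes 20 were higher in E2 and 8 lower (median 0.62). The members with the smallest p did not share a direction. Aen, a p53-induced nuclease, was higher (2.34). Sesn1, a stress sensor that restrains mTOR signalling, had 10.7, 9.90 and 11.99 CPM under E2 and 98.9, 128 and 103 under P4 (-3.34 ± 0.16), and Trp53inp1 (-2.40) and Ddb2, a DNA damage binding subunit (-1.43), were also lower. In the BCL2 family 7 were higher and 6 lower of 18 (median 0.00), near the shares of all tested genes (35.7% and 34.9%). On library totals 5 were higher and 8 lower. Bmf, a pro-death BH3-only protein, had 4.54, 2.06 and 2.22 CPM under E2, 53.5, 73.5 and 56.0 under P4 and 97.3, 107 and 120.3 under OIL (-4.39 ± 0.28). Bax, a pore-forming member, was higher in E2 (1.20), while Bok (-1.73) and the survival protein Bcl2 (-1.15) were lower.

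Several groups of epithelial products were mostly higher in E2. Keratins and cornified envelope genes were higher in E2 in 13 and lower in 2 of 21 (median 1.40). Tgm1, the transglutaminase that cross-links the envelope, had 46.6, 39.4 and 53.5 CPM under E2 and 2.90, 1.47 and 1.95 under P4 (4.47 ± 0.31), Krt7 differed by 3.56, and Ppl, periplakin (-1.53), and Sbsn, suprabasin (-1.11), went the other way. Secreted and antimicrobial proteins of the lumen were higher in 10 and lower in 1 of 17 (median 2.05). Lcn2 had 315, 414 and 233 CPM under E2, 6.79, 3.46 and 4.30 under P4 and 29.9, 20.6 and 26.7 under OIL, and the mucins Muc4 (4.68) and Muc1 (2.19) were higher in E2 while Wfdc1 was lower (-2.78). For Lcn2 and Muc4 the P4 libraries lay below OIL and the E2 libraries above it without overlap. Serine proteases and their inhibitors were higher in 14 and lower in 1 of 18 (median 1.47), a lower count that was 3 without E2 replicate 1. Klk1, tissue kallikrein and 1 of a family of close copies, had 25.9, 31.2 and 39.5 CPM under E2 and 0.769, 0.414 and 0.217 under P4, Prss23 differed by 1.595, and Tmprss11d had 1.86, 0.877 and 0.616 CPM against 1 count in all P4 libraries together. Spink3, a trypsin inhibitor of the glands, had no count in any E2 or OIL library and 2.08, 2.26 and 5.35 CPM under P4. Against a floor of 3 counts over the group it was at least 70.0-fold higher in P4 than in E2, and the list medians were the same with this bound in place of its fitted value. Floors cover counting error only.

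Fluid and ion genes had 9 higher and 8 lower of 24 (median 0.54), near the shares of all tested genes (35.7% and 34.9%). Cftr, the chloride channel, had 45.6, 23.0 and 27.3 CPM under E2, 1.58, 1.96 and 1.37 under P4 and 14.4, 8.90 and 10.7 under OIL (4.28 ± 0.32). The sodium pump subunit Atp1b1 was lower (-2.53). Markers of luminal epithelium were higher in 10 and lower in 4 of 20 (median 0.49), but their summed CPM overlapped, at 1317.42 to 1873.46 under E2 and 1487.82 to 1746.72 under P4. Wnt7b, a secreted Wnt ligand, had 22.7, 31.4 and 17.8 CPM under E2 and 0.543, 0.564 and 0.434 under P4 (5.53 ± 0.54), and Wnt7a (2.08) and the epithelial factor Elf3 (2.49) were higher in E2 as well. The lower markers were the tight junction proteins Cldn3 (-2.23) and Cldn4 (-0.76), the calcium buffer Calb1 (-2.84) and the lysophosphatidic acid receptor Lpar3 (-2.64). Gland markers gave 5 higher and 4 lower of 12 (median -0.02), near the shares of all tested genes, and on library totals 4 and 5. Lif, the cytokine of implantation, had 122, 151 and 136 CPM under E2 and 4.16, 2.41 and 2.02 under P4 (5.59 ± 0.37), and Sox9 was also higher in E2 (3.27), as were the implantation serine proteases Prss28 (0.671, 2.63 and 1.52 CPM under E2, 0.0905, 0.301 and 0.181 under P4) and Prss29 (5.63, 25.5 and 9.78 CPM under E2, 0.0905, 0.188 and 0.108 under P4) and Aldh1a1 (0.84). Wfdc3 (-2.33) and Gdf5 (-0.91) were lower, with Ttr and Spink3. The summed CPM of gland markers was 316.89 to 379.48 under E2 and 117.09 to 162.96 under P4.

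**Figure D3:**
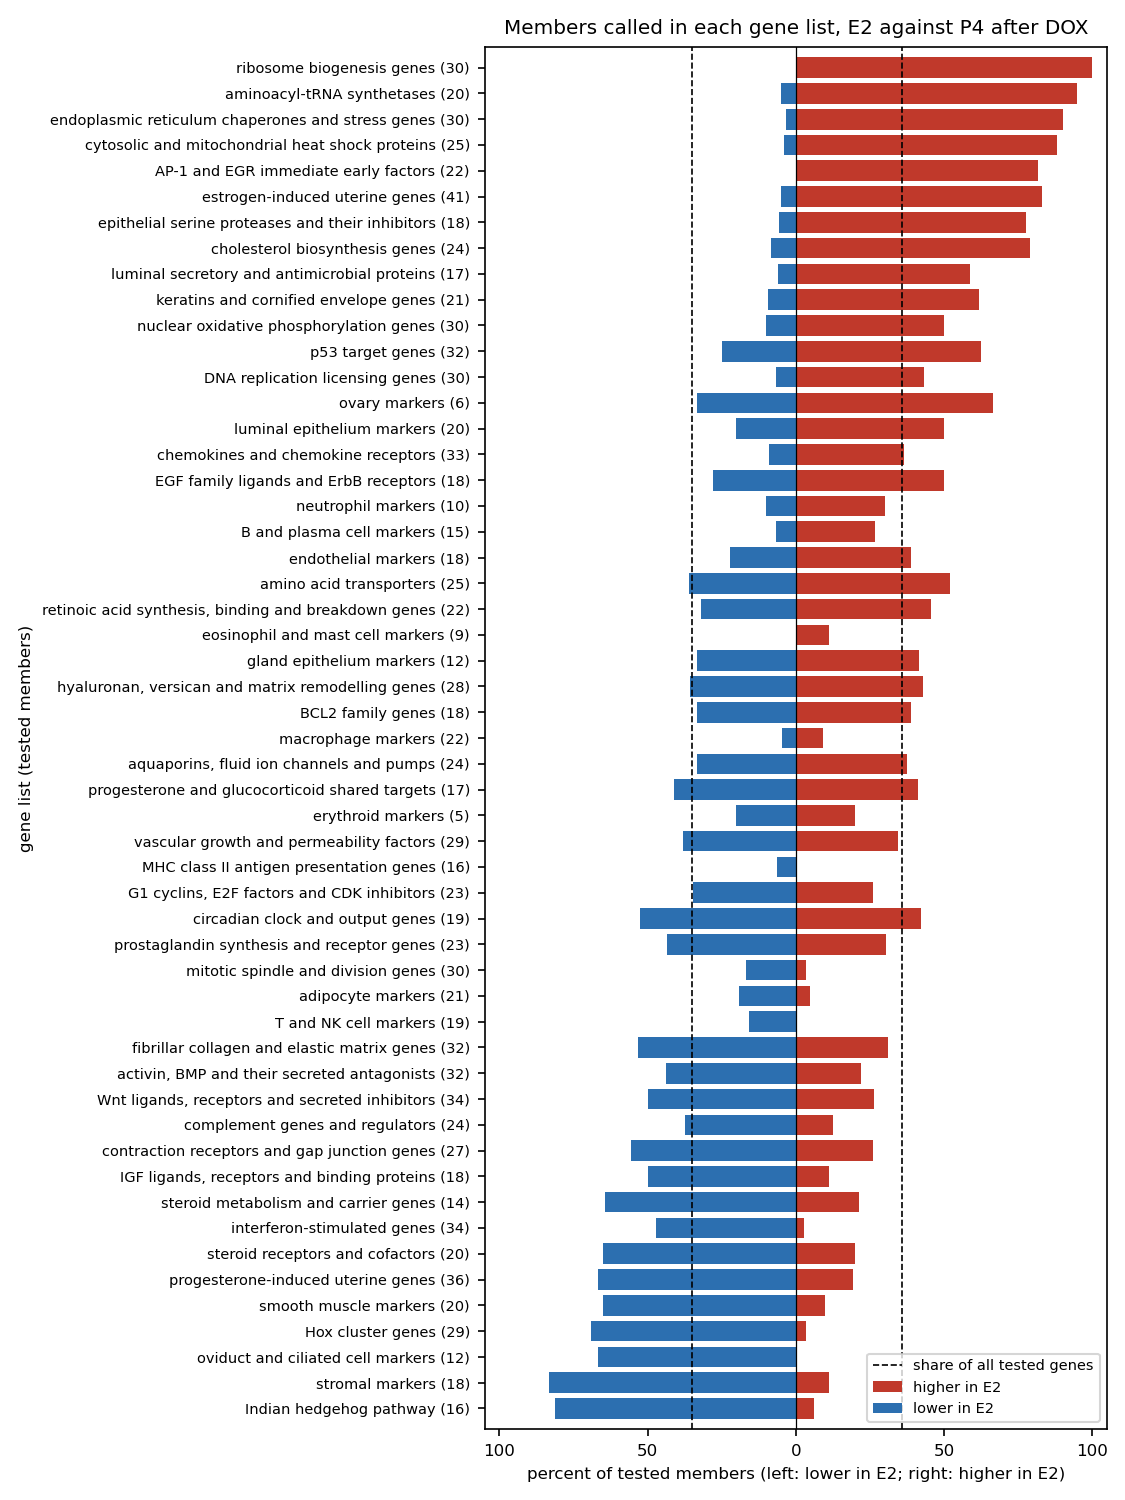
Percent of the tested members of each gene list that were higher (right) or lower (left) in E2 than in P4 after DOX, with the number tested in brackets and dashed lines at the shares of all tested genes (35.7% and 34.9%). Ribosome, tRNA synthetase, chaperone, heat shock, immediate early and estrogen-induced lists stand at the top, and hedgehog, stromal and ciliated cell lists at the bottom.

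Stroma and muscle genes stood lower in E2 than in P4. Stromal markers were lower in 15 and higher in 2 of 18 (median -1.40), and their summed CPM was 3162.97 to 4150.68 under E2 and 8304.29 to 10191.8 under P4. Dpt, dermatopontin, had 100.1, 87.9 and 136 CPM under E2, 499, 673 and 796 under P4 and 244, 324 and 205 under OIL (-2.60 ± 0.25). Hoxa10, a stromal factor required for decidualization, differed by -2.04, and the higher ones were Twist2 (1.81) and Pdgfrb (0.42). Pdgfrb lost its call without E2 replicate 1 or P4 replicate 1. Smooth muscle markers were lower in 13 and higher in 2 of 20 (median -1.14). Against OIL, P4 raised 12 of them and lowered 0 (median 0.82), while E2 raised 4 and lowered 6 (median -0.17). The summed CPM of these markers was 14189.49 to 16881.49 under E2 and 23392.21 to 40161.23 under P4, the highest in P4 replicate 2. Under OIL it was 10650.39 to 22705.13. Pgm5 (-2.34) and Ckm, muscle creatine kinase (-5.51, with 12 counts over the E2 libraries), were lower in E2 than in P4. The 2 members higher in E2 were Oxtr and Gja1. Oxtr, the oxytocin receptor, had 599.7, 440.3 and 528 CPM under E2 and 27.5, 29.9 and 22.2 under P4 (4.30 ± 0.33), and Gja1, connexin 43, differed by 2.16. Over the contraction receptors and gap junction genes 7 were higher and 15 lower of 27 (median -0.62). Gjb2, connexin 26, had 212, 219.6 and 139 CPM under E2 and 4.16, 3.91 and 2.097 under P4 (5.82 ± 0.45), and Rgs4 was higher as well (2.43). The part of muscle or stroma content in these gene differences was not tested.

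Hox cluster genes were lower in E2 in 20 and higher in 1 of 29 (median -1.003), with Hoxa9 at 33.9, 35.7 and 30.3 CPM under E2 and 153, 117 and 126 under P4 (-1.99 ± 0.19). Hoxc6 (-3.35), Hoxd3 (-1.42) and Hoxd4 (-1.52) followed, and Hoxd3 and Hoxd4 overlap on the same strand. The higher one, Hoxd8 (0.32), was not called without E2 replicate 1 or P4 replicate 2. Collagen and elastic matrix genes gave 10 higher and 17 lower of 32 (median -0.71), and within the list the fibrillar chains diverged. Col3a1 had 237, 149 and 261 CPM under E2, 1843, 2455 and 2616 under P4 and 548, 922 and 652 under OIL (-3.42 ± 0.38), and Col5a2 (-2.74) and the cross-linking enzyme Loxl3 (-2.88) were lower too. Col5a1, the partner chain of Col5a2, was higher, with 915, 793 and 1063 CPM under E2 and 207, 269.6 and 262 under P4 (1.91 ± 0.20). For hyaluronan and matrix remodelling 12 were higher and 10 lower of 28 (median 0.44), the lower share being near the 34.9% of all tested genes. On library totals 11 were higher and 12 lower. Has1, a hyaluronan synthase, had 41.9, 30.2 and 72.3 CPM under E2 and 1.22, 0.301 and 0.434 under P4 (6.25 ± 0.62), while Hapln1, which links hyaluronan to proteoglycans (-4.91), and the protease Mmp11 (-3.07) were lower and the hyaluronidase Hyal2 higher (1.27).

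Growth factor families were mixed. IGF ligands, receptors and binding proteins were lower in E2 in 9 and higher in 2 of 18 (median -0.61). Igfbp5 had 275, 279 and 176 CPM under E2 and 1322, 2090.1 and 1249.7 under P4 (-2.68 ± 0.30). Igfbp4 (-1.58), Igfbp6 (-1.30) and the insulin receptor substrate Irs2 (-1.77) were lower as well, against the rise of Igf1 described above. The other higher member was Irs1 (0.39), and the count of higher members was 1 without E2 replicate 1, P4 replicate 2 or P4 replicate 3. In the EGF family 9 were higher and 5 lower of 18 (median 0.29). The neuregulins Nrg1 (2.76) and Nrg2 (3.18), Hbegf (2.46) and the regulator Rhbdf1 (1.25) were higher in E2, and Areg, as given above, Btc (-1.14), Nrg4 (-2.04) and the receptors Erbb2 (-0.27) and Erbb3 (-0.88) were lower. Wnt pathway genes were higher in 9 and lower in 17 of 34 (median -0.64). Axin2, a target and inhibitor of the pathway, had 362, 334 and 405 CPM under E2, 65.6, 60.3 and 73.5 under P4 and 164, 133 and 122 under OIL (2.47 ± 0.17), with P4 below OIL and E2 above it. Wnt11 ran opposite, with 1.81, 1.65 and 2.05 CPM under E2, 29.6, 30.6 and 34.1 under P4 and 8.95, 8.12 and 13.7 under OIL (-4.09 ± 0.36), the inhibitor Dkk3 was lower in E2 (-1.89) and the co-receptor Lrp5 higher (0.70).

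Activin and BMP genes gave 7 higher and 14 lower of 32 (median -0.19). The 2 inhibin subunits moved apart, since Inha was lower in E2 (-1.79) and Inhbb higher, and the pseudoreceptor Bambi was lower (-1.64). Bmp8a had 5.73, 3.09 and 6.69 CPM under E2 and 3 counts over the P4 libraries. It overlaps Oxct2a on the same strand. Prostaglandin genes were higher in 7 and lower in 10 of 23 (median -0.35). Ptgfr, the receptor for prostaglandin F, had 2.995, 3.82 and 3.12 CPM under E2 and 63.7, 45.8 and 48.6 under P4 (-3.99 ± 0.25), the breakdown enzymes Hpgd (-3.01) and Cbr1 (-1.30) were lower, and the synthase co-chaperone Ptges3 was higher (1.28). Vascular factors had 10 higher and 11 lower of 29 (median -0.24), near the shares of all tested genes (35.7% and 34.9%). Here the receptor partners crossed over: Ramp1, which pairs with the CGRP receptor, had 5.63, 7.07 and 4.97 CPM under E2 and 65.6, 91.2 and 87.5 under P4 (-3.79 ± 0.19), whereas Ramp3 had 571, 459 and 477 CPM under E2 and 14.2, 8.08 and 8.64 under P4. Adm, the adrenomedullin ligand, was higher (3.06) and Angpt1 lower (-4.21). Retinoid genes were higher in 10 and lower in 7 of 22 (median 0.30). The receptors diverged, Rara being higher (1.74) and Rarb lower (-3.86) in E2, and the binding protein Crabp2 was higher (3.02).

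Immediate early factors of the AP-1 and EGR families were higher in E2 in 18 of 22, with no call in the rest (median 2.61). Fosl2 had 534, 515 and 639.8 CPM under E2 and 90.3, 88.4 and 90.8 under P4 (2.65 ± 0.17). Maff (4.16), Ier3 (3.38) and Klf4 (2.101) were higher too, and for Maff and Ier3 the P4 libraries lay below OIL. Clock genes and their outputs gave 8 higher and 10 lower of 19 (median -1.03), with 5 higher on library totals. The output factors fell in both hormone groups against OIL and further under E2. Dbp had 9.71, 8.46 and 10.6 CPM under E2, 130.2, 161 and 108 under P4 and 275, 179 and 185 under OIL (-3.79 ± 0.28), Per3 had 24.8, 28.7 and 31.5 CPM under E2, 255, 252 and 234 under P4 and 441, 382 and 379 under OIL (-3.12 ± 0.21), and Tef differed by -2.16. Bhlhe40, a repressor in the clock, was higher in E2 (2.30). The hour of collection is not given in the labels, and its part in the clock values was not tested.

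**Figure D4:**
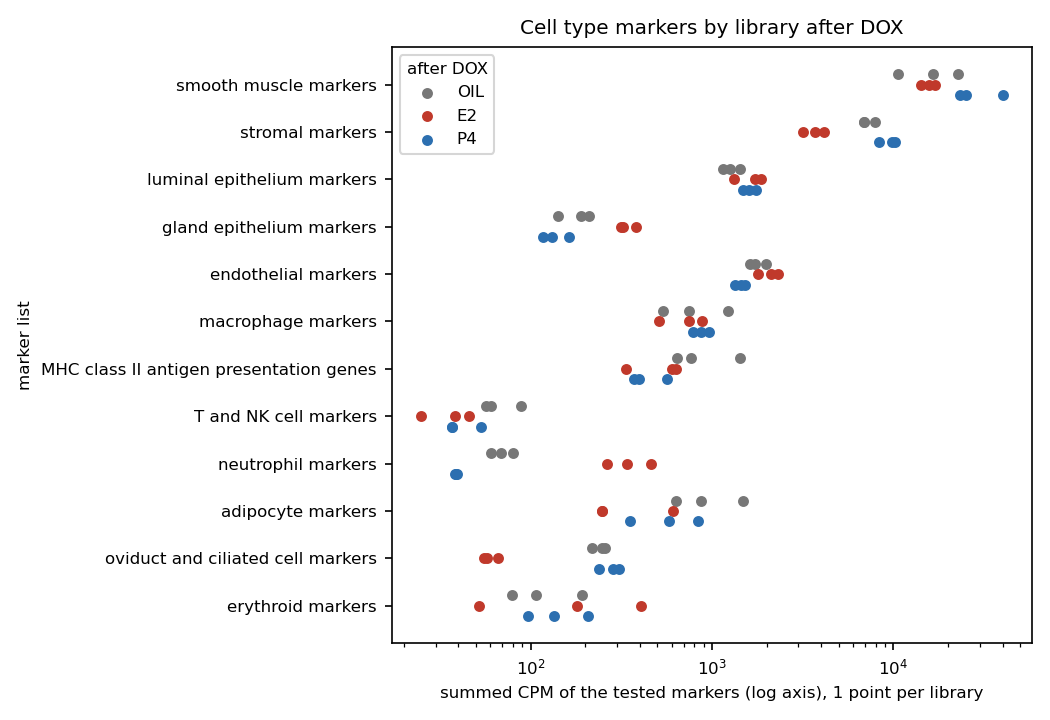
Summed CPM of the tested markers of 12 cell type or immune lists on a log axis, 1 point per library after DOX, coloured by group. The E2 points lie below the P4 points for smooth muscle, stroma and ciliated cell markers and above them for gland, endothelial and neutrophil markers. The groups overlap for the other lists shown. Endothelial sums overlap too when Eng is left out, and Lcn2 makes up most of the neutrophil sums under E2.

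In each of the 9 immune lists the share of members called was under the 70.6% of all tested genes. Macrophage markers gave 2 higher and 1 lower of 22 (median -0.13). Mertk, an efferocytosis receptor, was lower in E2 (-1.53 ± 0.10), and the 2 higher ones, Cd14 (0.47) and Fcgr1 (1.02), both lost their call without E2 replicate 2 or P4 replicate 2. Msr1, a scavenger receptor, had 14.9, 24.3 and 20.3 CPM under E2 and 5.02, 4.10 and 5.82 under P4 without passing the test (edgeR adjusted p = 0.0534), although it passed with DESeq2, with limma voom and with edgeR on the compared groups alone, the adjusted p ranging from 0.000141 to 0.132 over all settings. Of 16 MHC class II genes 1 was called between hormones, Ifi30, which was lower in E2 (-1.24, list median 0.31). Against OIL, 8 of the 16 were lower under E2 and 7 under P4, beside 37.5% and 15.1% of all tested genes. Of the 16, 6 were lower under both hormones, beside 9.93% of all tested genes. Cd74, the invariant chain, had 149, 248 and 264 CPM under E2, 211, 159.7 and 122 under P4 and 278, 593 and 316 under OIL, and H2-Ab1 and Ciita likewise overlapped between hormones. Of 19 T and NK markers 3 were called, all lower in E2 (median -0.06). These were Gzmb (-1.59), Ncr1 (-1.26) and Gzma (-1.15), the last of which was not called without E2 replicate 1 or P4 replicate 1. Prf1 did not pass (-0.97, edgeR adjusted p = 0.088), although it did on library totals and without P4 replicate 2. B and plasma cell markers had 4 higher and 1 lower of 15 (median 1.09), or 7 higher without E2 replicate 1. Xbp1, also a factor of secretory epithelium, was higher (1.09), as were Cd79b (1.51) and Derl3 (1.301), with Cd79a (1.46), and Prdm1 was lower (-0.69).

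Neutrophil markers had 3 higher and 1 lower of 10 (median 1.80), or 5 higher without P4 replicate 3. Their sum was 263.98 to 461.92 CPM under E2 and 38.5 to 39.52 under P4, and most of it was Lcn2, which epithelium also makes. The defining markers Mmp8 (0.620, 1.39 and 0.411 CPM under E2, 0.136, 0.0376 and 0.181 under P4) and Retnlg (0.775, 0.567 and 0.205 under E2, 0, 0.0376 and 0.0362 under P4) were near the limit of detection, Mmp8 losing its call without E2 replicate 2, and Mmp9 was lower in E2 (-2.27). Of 9 eosinophil and mast cell markers 1 was called (median -0.27). This was Kit, higher in E2 (0.48), not called without E2 replicate 1 or P4 replicate 2, and Mcpt4, Ms4a2 and Fcer1a overlapped between groups. Of 33 chemokines and their receptors 12 were higher in E2, a share near the 35.7% of all tested genes, and 3 lower (median 1.03). Ccl7 had 112, 48.6 and 35.3 CPM under E2 and 2.76, 1.35 and 2.53 under P4 (4.89 ± 0.68), Ccl2 differed by 3.87, Cxcr7 (Ackr3) by 2.89 and Cx3cl1 by 1.69, while Ccl21a (-1.25), Cxcl12 (-0.71) and its receptor Cxcr4 (-1.84) were lower. Interferon-stimulated genes leaned towards P4, with 16 lower and 1 higher in E2 of 34 (median -0.59). Rsad2, viperin, had 1.29, 2.68 and 4.68 CPM under E2 and 18.6, 8.31 and 14.2 under P4 (-2.23 ± 0.34), and Ddx58 (RIG-I, -1.89), Xaf1 (-1.74) and Ifit2 (-1.64) were lower as well. The higher one was Bst2, tetherin (0.50), and 2 were higher without P4 replicate 1. In complement 3 were higher and 9 lower of 24 (median -0.80), the lower share being near the 34.9% of all tested genes. Cfi, complement factor I, had 0.362, 0.0752 and 0.145 CPM under P4, 3.72, 3.04 and 3.86 under E2 and 4.73, 4.40 and 6.11 under OIL (4.21 ± 0.40), the other higher ones were Cfb (1.97) and C5ar1 (1.59), and Cd59a (-1.52), Masp1 (-3.68) and Cd46 (-1.85) were lower in E2.

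Other cell types that a dissected uterus can carry were examined in the same way. Endothelial markers had 7 higher and 4 lower of 18 (median 0.12), with the higher share near the 35.7% of all tested genes. On library totals these markers gave 5 and 6. Their sum was 1796.15 to 2298.79 CPM under E2, 1338.39 to 1517.1 under P4 and 1630.88 to 1996.71 under OIL. With Eng left out, the E2 and P4 sums overlapped. Eng, endoglin, had 483, 541 and 534 CPM under E2 and 102, 104.7 and 123 under P4 (2.24 ± 0.23), Kdr (1.26) and Sox18 (1.52) were higher, and Cldn5 (-1.76), Tek (-0.74), Vwf (-1.47) and Sox17 (-0.37) were lower. Adipocyte markers had 1 higher and 4 lower of 21 (median -0.96), or 10 lower without E2 replicate 3. Their sums were 247.69, 247.26 and 610.59 CPM in E2 replicates 1 to 3 and 838.69, 583.11 and 353.68 CPM in P4 replicates 1 to 3, so the groups overlapped through E2 replicate 3. Slc2a4, the insulin-responsive glucose transporter (-2.81), Thrsp (-1.96), Plin4 (-2.11) and Cidea (-1.71) were the lower ones. Gpd1, glycerol phosphate dehydrogenase, was higher (1.603), but not without E2 replicate 1, E2 replicate 3, P4 replicate 2 or P4 replicate 3. Of 12 ciliated and oviduct markers 8 were called, all lower in E2 (median -2.02), with sums of 55.72 to 66.38 CPM under E2 and 238.88 to 306.57 under P4. Ccdc39 had 0.981, 1.03 and 1.11 CPM under E2 and 17.5, 15.9 and 15.2 under P4 (-3.95 ± 0.19), and Tppp3 (-2.35) and the ciliogenic factors Rfx2 (-2.05) and Rfx3 (-1.99) were lower. Erythroid markers had 1 higher and 1 lower of 5, and the globins Hba-a1 (30.6, 107 and 236 CPM under E2, 79.8, 56.7 and 119 under P4) and Hba-a2, which are near-identical copies, overlapped. The higher call was lost without E2 replicate 3. The lower one, Klf1, rested on 3 counts in the E2 libraries and was lost without E2 replicate 1, E2 replicate 2 or P4 replicate 3. Ovary markers had 4 higher and 2 lower of 6 (median 1.48). Foxl2, which uterine stroma also expresses, had 143, 79.4 and 93.7 CPM under E2 and 35.2, 35.2 and 44.7 under P4 (1.46 ± 0.20), and the granulosa gene Amh was higher too (1.5). The oocyte genes Bmp15 (1.24, 1.91 and 1.19 CPM under E2, 0.317, 0.188 and 0.0723 under P4) and Gdf9 (0.878, 0.722 and 0.945 under E2, 0.317, 0.226 and 0.217 under P4) were low in all libraries. The markers lower in E2 were Star (-0.86) and Inha, and Star lost its call without E2 replicate 1, E2 replicate 2 or P4 replicate 2.

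Against OIL, E2 changed 11254 genes (72.6% of those tested; 35.1% higher and 37.5% lower) and P4 changed 4618 (29.8%; 14.7% higher and 15.1% lower). The 2 reference comparisons share the OIL libraries, which by itself makes their differences resemble each other, so the classes below are a description with no test. Both hormones changed 3706 genes. The same direction was taken by 1466 genes that were higher and 1538 that were lower, and opposite directions by 328 genes higher in E2 and lower in P4 and 374 genes lower in E2 and higher in P4. Among the genes raised by both, the median log2 difference from OIL was 1.165 for E2 and 0.451 for P4, and directly compared 1094 were higher in E2, 36 were higher in P4 and 336 were not called. Among those lowered by both, the medians were -1.347 for E2 and -0.678 for P4, with 931 lower in E2, 53 lower in P4 and 554 not called. A further 3332 genes higher and 3388 genes lower in E2 than in P4 were called against OIL for E2 alone, and 384 and 373 for P4 alone. The P4 and class counts depended on single libraries. Without P4 replicate 3, P4 changed 3057 genes (1482 higher), both hormones changed 2431, and 917 were raised by both. Genes higher in E2 and lower in P4 numbered 196 without P4 replicate 2, 199 without P4 replicate 3, and 196, 217 and 213 without OIL replicates 1, 2 and 3. Genes lower in E2 and higher in P4 numbered 249 without P4 replicate 3 and 241 without OIL replicate 1.

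Genes raised by both included Ngfr, the low-affinity nerve growth factor receptor, with 410.1, 259 and 341 CPM under E2, 17.7, 25.3 and 29.4 under P4 and 4.39, 2.29 and 3.84 under OIL. E2 exceeded P4 by 3.80 ± 0.43 on the log2 scale (edgeR adjusted p = 9.44e-07), and the 3 groups did not overlap. Dbh, the enzyme that makes noradrenaline, kept the same order (8.16, 5.78 and 4.76 CPM under E2, 0.588, 0.827 and 0.506 under P4, 0.124, 0.138 and 0 under OIL), as did Il1r2, the decoy receptor of interleukin 1 (2.04 for E2 against P4, 1.34 without E2 replicate 2). Atp2c2, a secretory pathway calcium pump, was higher in P4, with 4.21, 4.85 and 5.03 CPM under P4 and 2.32, 1.496 and 1.11 under E2 (-1.52 ± 0.39, edgeR adjusted p = 0.00276) and 2 counts over the OIL libraries. Gpr83 was higher in E2 (1.34), but not called without E2 replicate 3, P4 replicate 2 or P4 replicate 3. Krt15 ranged from 0.136 to 23.8 CPM across the 6 hormone libraries and did not pass the test between hormones (edgeR adjusted p = 0.704).

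Among genes lowered by both, some met at the same level. Gabrp, a GABA receptor subunit, had 6.20, 15.7 and 5.46 CPM under E2 and 7.96, 14.3 and 4.99 under P4, against 109, 59.9 and 61.1 under OIL, and the difference between hormones was 0.00 ± 0.58 (edgeR adjusted p = 0.997). Pla2g5, a secreted phospholipase, had 5.37, 2.27 and 6.57 CPM under E2 and 6.29, 5.04 and 2.82 under P4, against 24.2, 15.3 and 25.6 under OIL (0.02 ± 0.48). For both genes the E2 and P4 libraries overlapped and all lay below OIL. Slc15a2, a peptide transporter (-0.82, edgeR adjusted p = 0.222), and Aldh1a3, a retinaldehyde dehydrogenase (-1.13, edgeR adjusted p = 0.0569), also missed the threshold, though Aldh1a3 passed with DESeq2, on library totals, with mitochondrial and small RNA features left out, and without E2 replicate 3 or P4 replicate 3. Gucy2g fell further under E2, with 1.498, 1.03 and 1.07 CPM under E2, 5.43, 10.2 and 3.51 under P4 and 23.6, 21.5 and 34.7 under OIL (-2.41 ± 0.39). Lag3 was lower in E2 (-0.76), a call lost without E2 replicate 1 or P4 replicate 1.

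The opposed classes held genes described above and others of the same pattern. Higher under E2 and lower under P4 than OIL were Padi1, Wnt7b, Lcn2, Muc4, Maff and Slc28a3, a nucleoside transporter that had 25.6, 23.6 and 15.9 CPM under E2, 5.60, 5.83 and 8.11 under OIL and 1.67, 2.29 and 2.71 under P4. Their differences from OIL ran from 1.74 to 4.88 for E2 and from -2.68 to -1.54 for P4 on the log2 scale. In the reverse class were Ttr, Hif3a, Ano2, Pla2g10, Kcng1 and Hhipl1. Pla2g10 had 0.981, 0.877 and 1.19 CPM under E2, 9.33, 6.70 and 9.53 under OIL and 46.5, 35.8 and 41.7 under P4. Kcng1, a potassium channel subunit, had 1.91, 2.22 and 1.68 CPM under E2, 9.99, 10.7 and 14.7 under OIL and 47.1, 77.5 and 38.3 under P4. In all 12 genes the OIL libraries lay between the 2 hormones without overlap.

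**Figure D5:**
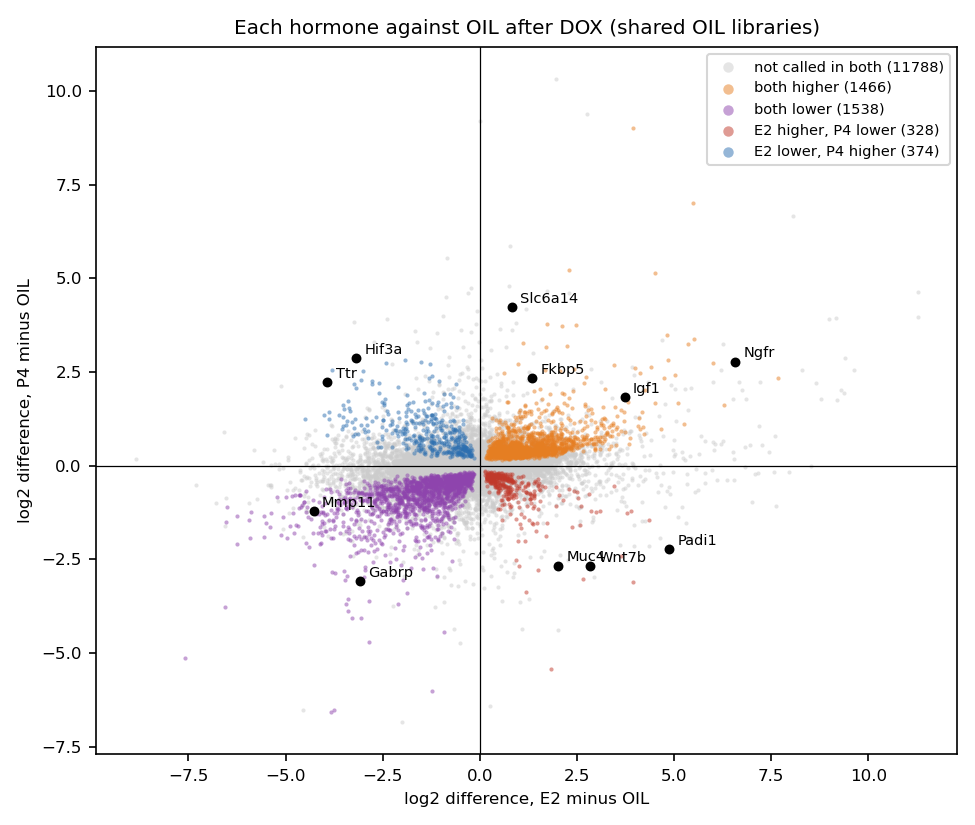
Log2 difference of P4 from OIL (vertical axis) against that of E2 from OIL (horizontal axis) after DOX, 1 point per tested gene, coloured by the class of its 2 edgeR calls. Both axes use the same OIL libraries; 1466 and 1538 genes lie in the shared directions and 328 and 374 in the opposed ones, and the spread is wider along the E2 axis.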

How the data were processed

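The authors deposited 1 table of raw read counts, whole numbers for 22238 gene symbols in 18 columns (6 groups of 3 libraries), of which 2904 symbols were at 0 throughout. Build GRCm38, HISAT2 2.1.0, StringTie 1.3.4d and DESeq2 1.18.1 are among the entries, per the submitters' processing notes. No source used here gives the counter, the annotation or the use of strand, so reads of overlapping genes and near-identical copies may be shared. Per the labels' protocols the RNA was extracted with Trizol and libraries were made with a TruSeq total RNA kit.

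Counts were fitted with edgeR 4.0.16 in R 4.3.3 (filterByExpr by group, TMM, robust quasi-likelihood fit of all 18 libraries, 12 residual degrees of freedom), with Benjamini-Hochberg adjustment over 15494 tested genes and a threshold of 0.05. The contrasts were E2 against P4 and each hormone against OIL, all after DOX. CPM are on TMM-scaled libraries. Standard errors are the log2 difference divided by the root of its F statistic, and list medians are over tested members. Scripts were tested on simulated data. Named genes were the 12 largest differences in each direction (called, groups not overlapping, mean log2 CPM 1 or more), the 4 smallest p-values in each list, the 6 genes of each class with the largest lesser change from OIL and 12 fixed genes (Esr1, Pgr, Ltf, Greb1, Igf1, Ihh, Areg, Fkbp5, Zbtb16, Top2a, Mki67 and Cdkn1a). Results for some of these genes are not reported here, although they count in the totals and lists. Members behind small list counts, and the genes whose promoters are shown, were named after their values were seen. The members and lists were chosen with earlier results of these data known. Alternatives were DESeq2 1.42.0, limma 3.58.1 voom, other scalings and filters, the compared groups alone, a replicate block and leaving out each library. Replicate columns of 1 group differed by more than sampling noise, so each counted once.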

Additional observations from a re-analysis of the deposited data

Results flagged for a closer look

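The difference between E2 and P4 was also taken in the libraries that had PBS in place of DOX, and the 2 differences were compared by an interaction term in the same fit, a test added after the data were seen. It called 3543 of 15494 genes (22.9%), 1585 with a larger E2 minus P4 value after DOX and 1958 with a smaller one. Among the largest rises and falls reported and the 12 genes named in every case, the gap between the 2 arms passed this test in 5. For Sptlc3 the log2 difference between E2 and P4 was -2.46 with PBS and -5.29 with DOX, a gap of -2.83 ± 0.62 (edgeR adjusted p = 0.00541). Sptlc3 held only 20 counts over the DOX E2 libraries, so the size of its gap is uncertain. For Lrrc17 the differences were -2.66 and -5.19, a gap of -2.53 ± 0.51 (edgeR adjusted p = 0.00334). Hif3a went from -4.21 to -6.06, a gap of -1.85 ± 0.51 (edgeR adjusted p = 0.0188), and Zbtb16 from -3.67 to -5.15, a gap of -1.48 ± 0.38 (edgeR adjusted p = 0.0132). In these 4 genes E2 was below P4 in both arms and further below after DOX. All 4 are among the largest falls, which were picked from the DOX libraries. That choice by itself favours a larger difference after DOX than with PBS. Esr1 was not called with PBS (0.34, edgeR adjusted p = 0.0652), where E2 libraries held 507, 802 and 777 CPM and P4 libraries 523, 563 and 562 and overlapped, and its difference with DOX was -0.40, a gap of -0.74 ± 0.21 (edgeR adjusted p = 0.0225). The difference after DOX rested on single libraries, as given above.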

How the results depend on the processing

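The direct comparison gave 10266 to 11375 called genes over all settings run, lowest without P4 replicate 2 and highest with limma voom. DESeq2's Wald test gave 11029, no filter 11004 and the compared groups alone 10786. Against OIL, P4 changed 3057 to 3896 genes when single libraries were left out (1482 to 1944 higher, 1575 to 1952 lower). The same runs gave 2431 to 3552 genes changed by both hormones, 917 to 1430 higher under both, 1066 to 1504 lower under both, 196 to 289 higher in E2 and lower in P4, and 241 to 374 lower in E2 and higher in P4. The last class held 564 genes with limma voom, and 920 genes were higher under both on library totals. The cause was not tested. No called difference of a named gene changed sign, but differences that did not pass the test did when single libraries were left out, among them Krt15 (-3.14 to 1.33), Gabrp, Pla2g5, Mcpt4, Top2a and the globins. The balance of calls turned on library totals for all tested genes and for endothelial and gland markers, as given above. It also turned for the BCL2 family, amino acid transporters, and hyaluronan and matrix remodelling genes. Named genes stayed on their side of the threshold in 3563 cases of gene and setting, lost it in 27 and gained it in 15. Replicate numbers did not pair the libraries: deviations of same-numbered E2 and P4 libraries correlated at -0.172, -0.001 and -0.211. With replicate number as a block 10903 genes were called, and no named gene changed its call. Genes with almost no counts in a group, such as Areg under OIL and Tmprss11d under P4, have CPM but no usable fold. Folds that rest on few counts in the lower group are uncertain in size. Among these are Syt6 (10 counts) and Sectm1b (14) under P4, and Ckm (12), Ttr (14) and Sptlc3 (20) under E2.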
